A study of Mus musculus with 84 samples.

Results

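The genes described here are 38 genes of fatty acid oxidation and ketogenesis, followed through the colon of mice on a high fat or a low fat diet. They were chosen by symbol from known pathway roles, and each had a row among the 25494 genes of the RNA-seq count table. Peaks of the histone marks H3K27ac and H3K4me1 and of the nuclear receptor HNF4α were counted for a gene when they overlapped its locus extended by 10 kb on either side. RNA was measured in male C57BL/6 recipients that were germ-free until they were gavaged over 5 weeks, starting at 6 weeks of age, with stool of donors kept on the high fat diet (HFB) or the low fat diet (LFB), while eating the high fat diet (HFD, 60% of energy as fat) or the low fat diet (LFD, 10%). The groups are HFDHFB, HFDLFB, LFDHFB and LFDLFB, with 3 RNA-seq libraries each, and their H3K27ac peaks were available for 2, 3, 3 and 3 libraries. Conventionally raised male and female C57BL/6 mice fed either diet for 20 weeks from 6 weeks of age gave 6 libraries a diet for each histone mark, and the males gave 2 HNF4α libraries a diet. RNA came from cells scraped from the colon, and chromatin from epithelium released with EDTA. The labels do not tie libraries to animals, so the p-values measure only the spread between these libraries, which may be technical.

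Fatty acid oxidation shortens activated fatty acids inside mitochondria and peroxisomes, and hands electrons to the respiratory chain and acetyl-CoA to the citrate cycle or to ketone bodies. Long chains enter mitochondria on carnitine, whereas very long chains are first shortened in peroxisomes. The nuclear receptors of the PPAR family, which bind fatty acids, switch many of these genes on, and HNF4α, which is abundant in gut epithelium, recognises a closely related DNA element. Colonocytes draw much of their energy from butyrate made by bacteria, and part of it leaves the cell as ketone bodies.

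The 12 RNA-seq libraries held 39904191 to 48026846 counted reads. Epithelial markers were high in each of them, with a summed level of 11024 to 16673 CPM over 8 genes, none of which was at 0 in any library. CPM is the count of a gene scaled to a common library size, with library totals adjusted by the TMM normalization of edgeR. LFDHFB replicate 3 stood apart: the summed level of 6 distal Hox genes, which mark the hind part of the gut, was 29.8 CPM there and 437 to 1067 CPM in the other libraries. Most of the sum was Hoxb13 in those other libraries. HFDHFB replicate 3 was low in the HoxD genes too. Its Hoxd13 was 8.23 CPM, against 0.519 CPM in LFDHFB replicate 3 and 31.4 to 148 CPM elsewhere. Its Hoxb13, at 442 CPM, was not low, against 16.4 CPM in LFDHFB replicate 3. The summed level of 8 adipocyte markers was 2845 CPM in HFDLFB replicate 2, 1145 CPM in HFDLFB replicate 1 and 961 CPM in LFDHFB replicate 3, against 30.04 to 384 CPM in the other 9 libraries. Results that rest on the 3 libraries with the highest adipocyte sums are given with and without them. HFDHFB replicate 3 was left out only where each library was left out in turn. Markers of other cell types varied too. The summed level of 8 smooth muscle markers ran from 1248 CPM in HFDLFB replicate 3 to 7570 CPM in HFDHFB replicate 3. HFDLFB replicates 1 and 2 had the highest mesothelium sums, 405 and 505 CPM, against at most 209 CPM elsewhere. Their fibroblast sums were also the highest, 1716 and 1612 CPM, against at most 1074 CPM elsewhere. In bulk RNA, fewer cells of a type and less RNA per cell cannot be told apart.

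Most of the 38 genes were well expressed. Per kb of exon, the mean level over the 12 libraries was highest for Fabp2, the intestinal fatty acid binding protein, at 379 CPM per kb, followed by Slc25a20, the carnitine and acylcarnitine carrier, at 213 CPM per kb. The electron carrier subunit Etfb had 153 CPM per kb and the double bond isomerase Ech1 had 137 CPM per kb. At the other end stood Cyp4a10, a cytochrome P450 of omega-oxidation, at 0.0897 CPM per kb, the thioesterases Acot1 and Acot2 at 1.31 and 1.57 CPM per kb, and the liver type binding protein Fabp1 at 1.72 CPM per kb. Acot1 and Acot2, Acaa1b and its close paralogue Acaa1a, and Cyp4a10 and its family members are similar enough for reads to be shared, so their counts are uncertain. Variation between libraries differed widely among the 38 genes. The coefficient of variation over the 12 libraries was 6.94% for Cpt2 and 8.07% to 22.0% for the 10 enzymes of mitochondrial beta-oxidation, but 50.1% for Acsl1, 79.7% for Pdk4, 84.6% for Ppara, 86.1% for Cyp4a10, 93.7% for Angptl4 and 100.4% for Acaa1b.

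**Figure D1:**
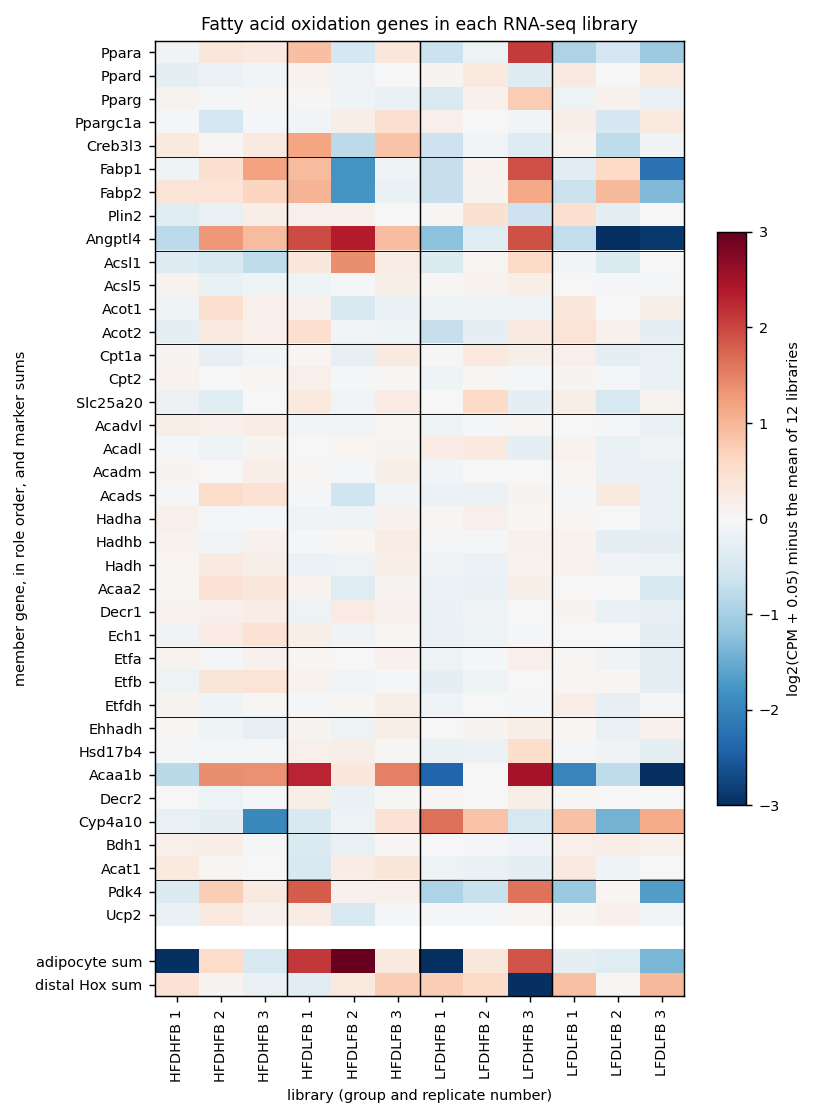
Each row is a gene, in the order of its role, and each column an RNA-seq library; colour shows log2(CPM + 0.05) minus the mean of the 12 libraries, cut at 3 in either direction. The rows of the mitochondrial enzymes are pale throughout, whereas Angptl4, Acaa1b, Pdk4 and Ppara are dark red in LFDHFB replicate 3, the library with the lowest distal Hox sum (29.8 CPM).

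The first question was whether the diet of the recipients moved these genes, averaged over both donors. No gene of 15893 tested passed an adjusted p of 0.05 in edgeR's quasi-likelihood test, so none of the 38 genes did (0% called). At an unadjusted p under 0.05 there were 3 of the 38 genes, Angptl4, Decr1 and Creb3l3, all higher on the HFD. Of all genes 468 or 2.94% had one, and 1.84% had one and were higher on the HFD. DESeq2 called 6 genes at an adjusted p of 0.05, none of them among the 38. The HFD minus LFD difference was positive for 24 and negative for 14 of the 38 genes, with a median of 0.09 on the log2 scale. Over all genes 50.1% were positive and the median was 0.00. For 27 of the 38 genes the 95% interval of the difference lay within 0.5 of 0 on the log2 scale, so larger average differences fell outside the interval for those genes. No gene of the 38 had HFD and LFD libraries that did not overlap, and 0.12% of all genes did.

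Among the regulators, Creb3l3, a membrane-bound transcription factor that acts with PPARα in lipid breakdown, had 18.2, 15.3 and 17.9 CPM in HFDHFB, 34.1, 8.71 and 27.3 CPM in HFDLFB, 9.70, 14.0 and 11.4 CPM in LFDHFB, and 16.2, 8.83 and 13.9 CPM in LFDLFB. Its HFD libraries were mostly higher, but HFDLFB replicate 2 was the lowest of all 12. The averaged difference was 0.70 on the log2 scale (95% interval 0.08 to 1.32, edgeR adjusted p = 0.9999), a 1.62-fold higher level on the HFD. Ppard, a PPAR family member expressed in many tissues, was the regulator with the highest level per kb. It ranged from 262.5 to 340.4 CPM with a median of 298 CPM on the HFD and from 242 to 389 CPM with a median of 361 CPM on the LFD. Its averaged difference was -0.19 (interval -0.45 to 0.07), and the diets overlapped, with LFDHFB replicate 3 the lowest library. Ppara, the receptor that drives fat burning in fasting, had 43.0, 59.5 and 56.6 CPM in HFDHFB, 87.0, 32.1 and 59.1 CPM in HFDLFB, 30.1, 42.1 and 199.6 CPM in LFDHFB, and 24.4, 33.1 and 21.9 CPM in LFDLFB. LFDHFB replicate 3 was far above every other library. The averaged difference of Ppara was 0.20 (interval -0.73 to 1.12) with that library and 0.86 (interval 0.34 to 1.38, adjusted p = 0.558) without it. Pparg, a further PPAR family member, and the coactivator Ppargc1a differed by -0.11 (interval -0.47 to 0.26) and -0.02 (interval -0.36 to 0.32).

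Of the genes of fatty acid binding and storage, Angptl4, a secreted inhibitor of lipoprotein lipase and a PPAR target, had the largest difference of the 38 genes. It had 2.44, 10.6 and 8.18 CPM in HFDHFB, 16.6, 21.8 and 8.06 CPM in HFDLFB, 1.78, 3.29 and 16.0 CPM in LFDHFB, and 2.52, 0.372 and 0.53 CPM in LFDLFB. LFDHFB replicate 3 lay within the range of the HFD libraries, and among the other LFD libraries none was above 3.29 CPM, a level that HFDHFB replicate 1 alone of the HFD libraries did not exceed. The averaged difference was 1.88 (interval 0.47 to 3.30, edgeR adjusted p = 0.9999), or 3.69-fold, and it was 2.62 (interval 1.34 to 3.90) without LFDHFB replicate 3. Angptl4 counts were low, from 17 to 902 reads a library, and the 3 libraries with the most Angptl4 were also those with the highest adipocyte sums. The part of adipocyte RNA in this difference was not tested. Fabp2 had 89.9 to 620.9 CPM with a median of 407 CPM on the HFD and 122 to 681 CPM with a median of 262 CPM on the LFD. The diets overlapped over almost their whole range, and the difference of 0.10 had an interval of -1.0 to 1.19. The lipid droplet coat protein Plin2 differed by -0.07 (interval -0.48 to 0.35), and Fabp1, with at most 2.85 CPM, by 0.03 (interval -1.37 to 1.44).

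Fatty acids are activated by acyl-CoA synthetases and then passed to carnitine. Acsl5, the synthetase with the highest level per kb, had 122 to 158 CPM with a median of 131 CPM on the HFD and 133 to 157 CPM with a median of 142 CPM on the LFD, a difference of -0.07 (interval -0.25 to 0.11). Its range on the LFD lay within that on the HFD. Slc25a20 had 290.2 to 457 CPM with a median of 359.9 CPM on the HFD and 265 to 553 CPM with a median of 382 CPM on the LFD, a difference of -0.05 (interval -0.42 to 0.31). The outer and inner membrane transferases of the shuttle, Cpt1a and Cpt2, differed by -0.05 (interval -0.31 to 0.22) and 0.09 (interval -0.07 to 0.26). None of the 3 carnitine shuttle genes and none of the 4 synthetases and thioesterases had an unadjusted p under 0.05 in edgeR in this comparison.

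Mitochondrial beta-oxidation had 8 of 10 genes with higher values on the HFD, by small amounts: the fitted differences ran from -1.11% to 17.4% across the 10 genes. Decr1, the reductase that lets unsaturated fatty acids be oxidised, had 102 to 134 CPM with a median of 125 CPM on the HFD and 94.8 to 119.9 CPM with a median of 102 CPM on the LFD. Its HFD libraries lay higher on the whole, but HFDLFB replicate 1 was below 3 of the LFD libraries. The averaged difference was 0.23 (interval 0.03 to 0.43, edgeR adjusted p = 0.9999), or 1.17-fold. Ech1 had 287 to 419 CPM with a median of 332 CPM on the HFD and 253 to 310.4 CPM with a median of 291 CPM on the LFD (difference 0.23, interval -0.01 to 0.47). Acadvl, the dehydrogenase for very long chains, had 195 to 242 CPM with a median of 222 CPM on the HFD and 178 to 212 CPM with a median of 198 CPM on the LFD (difference 0.15, interval -0.01 to 0.31). Both genes overlapped between the diets. Acadm, the medium chain dehydrogenase, had medians of 224 CPM on the HFD and 208 CPM on the LFD, with ranges of 209 to 247 CPM and 185 to 225 CPM (difference 0.15, interval -0.03 to 0.32). The thiolase Acaa2 had medians of 144 and 126 CPM, with ranges of 104 to 182 CPM and 98.3 to 152 CPM (difference 0.22, interval -0.06 to 0.50). Hadhb, the beta subunit of the trifunctional protein, had medians of 116 and 107 CPM, with ranges of 104 to 129 CPM and 91.8 to 121 CPM (difference 0.12, interval -0.08 to 0.32). Its partner Hadha differed by -0.02 (interval -0.20 to 0.17).

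The electron transfer flavoprotein passes electrons from the dehydrogenases to the respiratory chain. Etfb, 1 of its 2 subunits, had 154 to 228 CPM with a median of 175 CPM on the HFD and 143 to 179 CPM with a median of 164 CPM on the LFD, a difference of 0.20 (interval -0.05 to 0.45). Etfa, the other subunit, had 194 to 219 CPM with a median of 212 CPM on the HFD and 166 to 221 CPM with a median of 191 CPM on the LFD, a difference of 0.12 (interval -0.06 to 0.30). Both overlapped between the diets.

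In peroxisomes, the thiolase gene Acaa1b varied most. It had 2.95, 13.7 and 13.6 CPM in HFDHFB, 25.6, 6.43 and 14.8 CPM in HFDLFB, 0.957, 5.11 and 29.7 CPM in LFDHFB, and 1.28, 3.06 and 0.435 CPM in LFDLFB. As for Angptl4, LFDHFB replicate 3 was the high library among the LFD libraries, here above all HFD libraries too. The averaged difference was 1.52 (interval -0.13 to 3.18) with it and 2.51 (interval 1.05 to 3.98, edgeR adjusted p = 0.558) without it. Cyp4a10 had 0 to 0.207 CPM with a median of 0.111 CPM on the HFD and 0.0219 to 0.556 CPM with a median of 0.30 CPM on the LFD. With at most 25 reads in a library, its difference of -1.37 had a wide interval of -2.95 to 0.22. At these levels Cyp4a10 could pass the filter on low counts only through LFD libraries, which favours a lower level on the HFD. Decr2, the peroxisomal counterpart of Decr1 and the peroxisomal gene with the highest level per kb, had 61.3 to 79.1 CPM with a median of 68.5 CPM on the HFD and 69.4 to 79.7 CPM with a median of 71.3 CPM on the LFD (difference -0.08, interval -0.24 to 0.09). The bifunctional enzymes Ehhadh and Hsd17b4 differed by -0.08 (interval -0.28 to 0.12) and 0.08 (interval -0.19 to 0.34).

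The ketone body enzymes differed little between the diets. Acat1, which joins acetyl-CoA units, had 156 to 276 CPM with a median of 236 CPM on the HFD and 176 to 259 CPM with a median of 193 CPM on the LFD (difference 0.18, interval -0.12 to 0.49). Bdh1, which interconverts the ketone bodies acetoacetate and hydroxybutyrate, differed by -0.10 (interval -0.29 to 0.10). Of 10 other ketone body genes tested, 0 had an unadjusted p under 0.05 in edgeR. Pdk4, the kinase that shuts down pyruvate oxidation when fat is burned, had 4.97, 11.1 and 7.94 CPM in HFDHFB, 23.2, 7.21 and 7.30 CPM in HFDLFB, 3.47, 4.11 and 20.5 CPM in LFDHFB, and 3.04, 6.84 and 2.01 CPM in LFDLFB. HFDLFB replicate 1 and LFDHFB replicate 3 were the 2 high libraries, 1 on each diet. The difference was 0.72 (interval -0.42 to 1.86), and it was 1.37 (interval 0.44 to 2.30, adjusted p = 0.558) without LFDHFB replicate 3. Ucp2, an inner membrane carrier, had 515 to 865 CPM with a median of 725 CPM on the HFD and 671 to 795 CPM with a median of 711 CPM on the LFD (difference -0.01, interval -0.30 to 0.27).

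**Figure D2:**
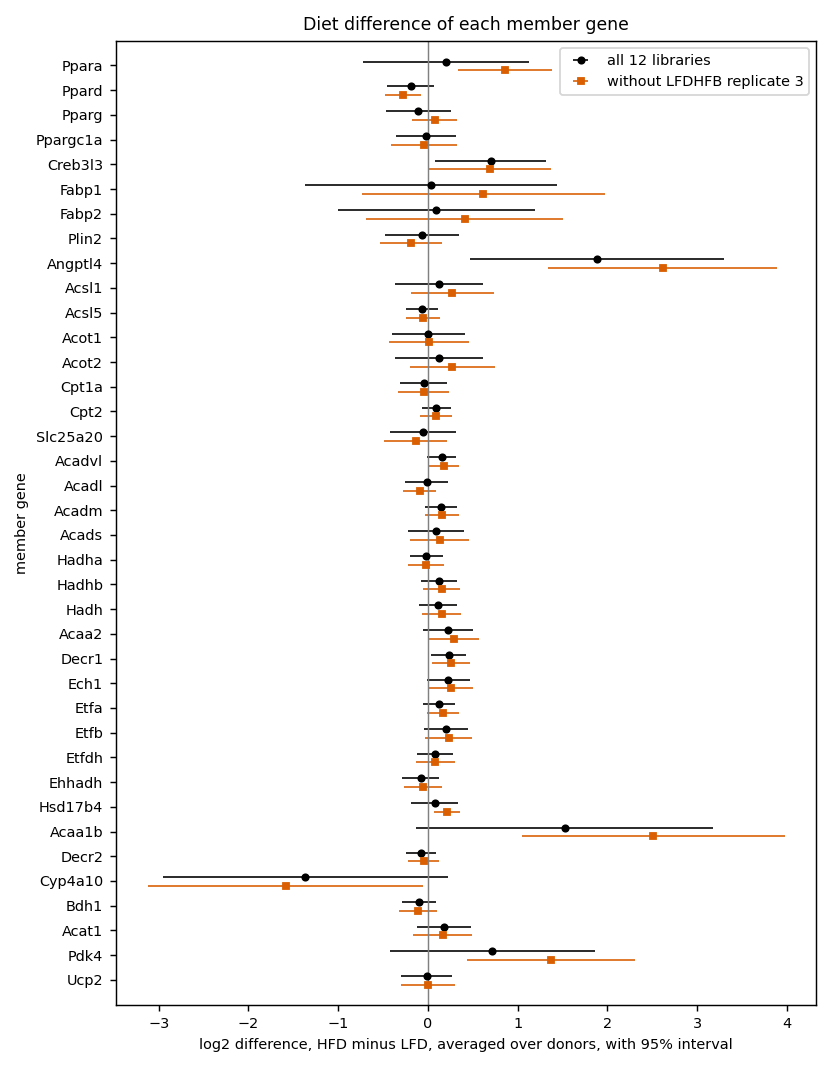
The x axis is the log2 difference between HFD and LFD recipients, averaged over donors, with its 95% interval, for each of the 38 genes; black is the fit of all 12 libraries and orange the fit without LFDHFB replicate 3. Angptl4 sits at 1.88 and 2.62, Acaa1b at 1.52 and 2.51, and most enzymes sit near 0.

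How many of the 38 genes had an unadjusted p under 0.05 depended on LFDHFB replicate 3. That library, on the LFD, was the highest of all 12 for 9 of the 38 genes. Leaving it out raises the HFD minus LFD differences of those genes, so the counts without it are a description only. Without LFDHFB replicate 3, 12 of the 38 genes had an unadjusted p under 0.05 in the averaged diet comparison, 10 of them higher on the HFD. Of all 16073 genes tested 8.74% had one, 4.67% with the HFD higher, and none passed the adjusted threshold in edgeR. The 10 were Angptl4, Acaa1b, Ppara, Pdk4, Hsd17b4, Decr1, Acadvl, Acaa2, Creb3l3 and Ech1. Ppard and Cyp4a10 were lower. Cyp4a10 could pass the filter on low counts only through LFD libraries, so its direction is a description only. The median of the 38 differences was then 0.15, and that of all genes 0.02. The next fit was chosen after the data were seen, and it leaves HFDLFB with 1 library. Leaving out HFDLFB replicates 1 and 2 as well, so that all 3 libraries rich in adipocyte RNA were gone, gave 11 of the 38 genes at an unadjusted p under 0.05, 10 of them higher on the HFD, against 3.96% of all genes and 1.93% with the HFD higher. None of the 38 passed the adjusted threshold in edgeR. In that fit Angptl4 differed by 2.14 (interval 0.72 to 3.57), Acaa1b by 2.47 (interval 0.89 to 4.05), Ppara by 0.85 (interval 0.46 to 1.24) and Pdk4 by 0.97 (interval 0.10 to 1.85).

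The diet comparison was then made within each donor. In LFB recipients 30 of the 38 genes had higher values on the HFD, against 50.7% of all genes. LFDLFB replicate 3 was the lowest of the 12 libraries for 14 of the 38 genes. Without it the median of the 38 differences was 0.05, against 0.02 over all genes. With all libraries kept, these medians were 0.10 and 0.00. At an unadjusted p under 0.05 there were 5 of the 38, 4 of them higher on the HFD, against 5.33% of all genes and 3.57% with the HFD higher, and none passed the adjusted threshold in edgeR. DESeq2 called Angptl4 alone among the 38 genes (adjusted p = 0.0149) and 11 genes in all. The values of Angptl4 in HFDLFB, all at or above 8.06 CPM, did not overlap those in LFDLFB, all at or below 2.52 CPM, and the difference was 3.76 (interval 1.59 to 5.93, edgeR adjusted p = 0.881). Acaa1b and Pdk4 were also separated, by 3.29 (interval 0.78 to 5.80) and 1.66 (interval 0.01 to 3.31). Acsl1, a synthetase that feeds both storage and oxidation, had 81.7, 172 and 77.4 CPM in HFDLFB and 62.0, 49.6 and 65.7 CPM in LFDLFB. HFDLFB replicate 2, the library with the highest adipocyte sum, was far above the rest; the difference was 0.90 (interval 0.21 to 1.59) with it and 0.43 without it, when its p was no longer under 0.05. Bdh1 went the other way, with 114, 129.7 and 157 CPM in HFDLFB and 170.3, 175 and 167 CPM in LFDLFB. Every HFDLFB library was lower, and the difference was -0.35 (interval -0.63 to -0.08). Hsd17b4 was separated as well, making 6 of the 38 genes whose groups did not overlap, or 15.8%, against 11.7% of all genes. The adipocyte sum was 320 to 2845 CPM in HFDLFB and 101 to 214 CPM in LFDLFB, so it was separated in the same direction; without the 3 libraries rich in adipocyte RNA, of which 2 are HFDLFB libraries, Angptl4 differed by 2.80 (interval 0.71 to 4.89), Acaa1b by 3.20 (interval 0.91 to 5.48), Pdk4 by 0.87 (interval -0.48 to 2.21) and Acsl1 by 0.37 (interval -0.12 to 0.87). The HFDLFB library kept, replicate 3, had an adipocyte sum of 320 CPM, still above the LFDLFB range. That fit leaves HFDLFB with 1 library, which is assumed to vary like the other groups. Bdh1 then differed by -0.14 (interval -0.47 to 0.20).

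In HFB recipients 20 of the 38 genes had higher values on the HFD, against 45.3% of all genes. At an unadjusted p under 0.05 there were 2 of the 38, both higher on the HFD, against 7.46% of all genes and 5.25% with the HFD higher, and none passed the adjusted threshold in edgeR or in DESeq2, which called 135 genes in all. The 2 were Acadvl, with 235, 229.7 and 242 CPM in HFDHFB and 186, 197 and 212 CPM in LFDHFB, and Etfb, with 154, 221 and 228 CPM against 143, 157 and 170.0 CPM. Acadvl did not overlap between the groups, by a difference of 0.25 (interval 0.02 to 0.47), whereas HFDHFB replicate 1 put Etfb within the LFDHFB range, with a difference of 0.36 (interval 0.01 to 0.71). Decr1, Acat1 and Creb3l3 were also separated, so that 4 of the 38 genes, or 10.5%, did not overlap against 11% of all genes. Angptl4 had group means of 7.06 CPM in HFDHFB and 7.02 CPM in LFDHFB, the latter resting on LFDHFB replicate 3.

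**Figure D3:**
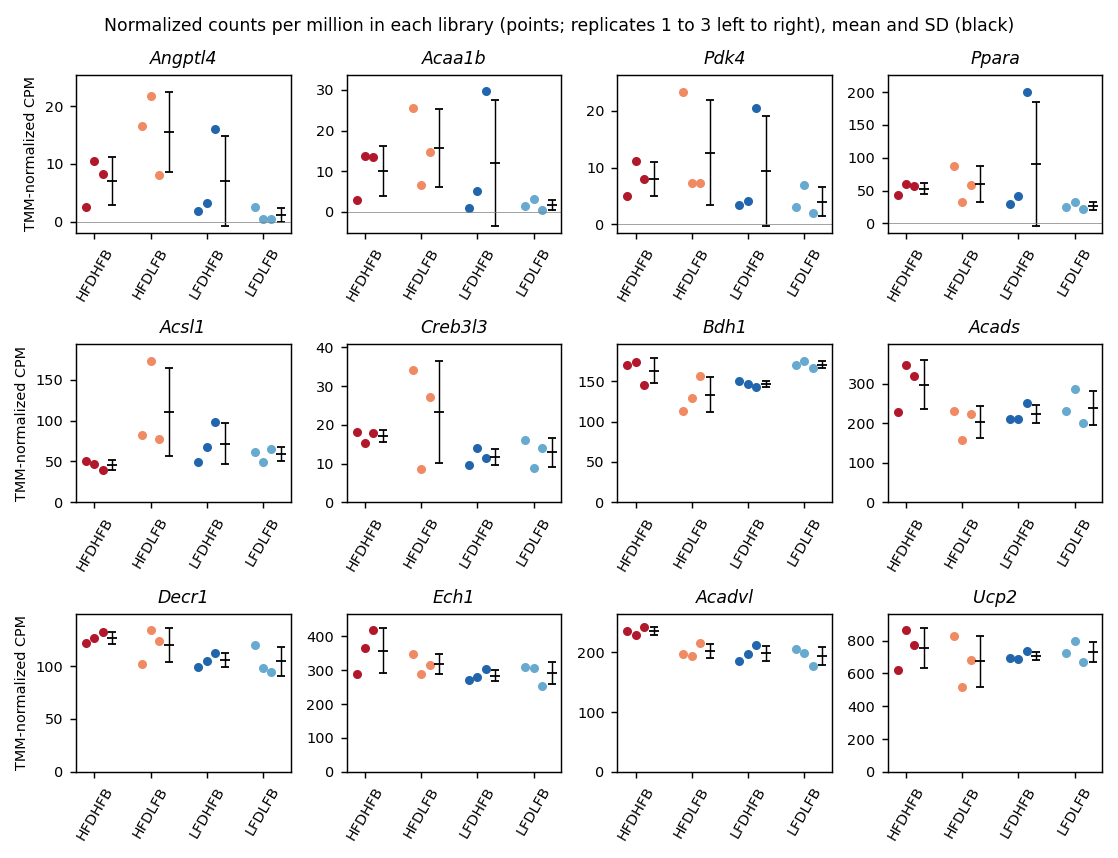
Normalized CPM of 12 genes in each RNA-seq library, with replicates 1 to 3 of each group from left to right and the group mean and SD in black. Angptl4 lies at or above 8.06 CPM in HFDLFB and at or below 2.52 CPM in LFDLFB, while LFDHFB replicate 3 is the highest library of its group for Angptl4, Acaa1b, Pdk4, Ppara and Acsl1.

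The bacteria were compared within each diet. On the HFD, 3 of the 38 genes had an unadjusted p under 0.05 for HFB against LFB, where 9.07% of all genes did, and none passed the adjusted threshold in edgeR. Acsl1 had 50.5, 47.2 and 39.0 CPM in HFDHFB, below all of the HFDLFB values given above. Its difference was -1.28 (interval -1.98 to -0.58, edgeR adjusted p = 0.495), and DESeq2 called it (adjusted p = 0.0333, log2 difference -1.29), with 80 genes called in all. Without HFDLFB replicate 2 the difference was -0.80, and without the 3 libraries rich in adipocyte RNA it was -0.76 (interval -1.25 to -0.27). Acads, the short chain dehydrogenase that starts butyrate oxidation, had 227, 347 and 318 CPM in HFDHFB and 230.1, 156 and 222 CPM in HFDLFB. HFDHFB replicate 1 overlapped the HFDLFB libraries, and the difference was 0.55 (interval 0.11 to 1.0). Without the 3 libraries rich in adipocyte RNA it was 0.42 (interval -0.17 to 1.02). On the LFD, 3 of the 38 genes had an unadjusted p under 0.05, against 3.72% of all genes and 2.01% with HFB higher, with none past the adjusted threshold in edgeR and 1 gene of all in DESeq2, not among the 38. The 3 were Ppara (1.78, interval 0.43 to 3.12), Angptl4 (2.62, interval 0.54 to 4.70) and Acaa1b (2.90, interval 0.43 to 5.37), higher with HFB. Without LFDHFB replicate 3 the differences were 0.45 (interval -0.31 to 1.21), 1.15 (interval -0.62 to 2.92) and 0.93 (interval -1.10 to 2.95).

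Whether the diet difference itself changed with the donor was tested as the interaction, the HFD minus LFD difference in HFB recipients minus that in LFB recipients. At an unadjusted p under 0.05 there were 6 of the 38 genes, against 11.3% of all genes, and none passed the adjusted threshold in edgeR; DESeq2 called 72 genes, none of the 38. Acsl1 had an interaction of -1.56 (interval -2.54 to -0.58, edgeR adjusted p = 0.386) and Angptl4 one of -3.75 (interval -6.59 to -0.91). Without LFDHFB replicate 3 the values were -1.26 (interval -2.18 to -0.34) for Acsl1 and -2.28 (interval -4.62 to 0.06) for Angptl4. Without the 3 libraries rich in adipocyte RNA they were -0.73 (interval -1.36 to -0.09) and -1.32 (interval -4.14 to 1.51), and 1 of the 38 genes had an unadjusted p under 0.05, against 7.79% of all genes.

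Further genes of the same pathway were read from lists that did not contain the 38 genes. Of 50 other beta-oxidation enzymes tested, 3 had an unadjusted p under 0.05 in the averaged diet comparison, all higher on the HFD, against 2.94% of all genes and 1.84% with the HFD higher, with a median difference of 0.04 and a range of -0.26 to 0.66. Of 23 other PPAR targets, 2 did, both higher on the HFD, against the same shares of all genes, with a median of 0.60 against 0.00 over all genes. They were the apolipoprotein genes Apoa1 and Apoa4, which are named because the count is small. Apoa4 could pass the filter on low counts only through HFD libraries, which favours a higher level on the HFD. Of 24 other regulators, among them Hnf4a and the PPAR partners Rxra and Rxrb, 0 did in edgeR, with a range of -0.24 to 0.26. Without LFDHFB replicate 3, 13 of the 23 PPAR targets had an unadjusted p under 0.05, all higher on the HFD, with a median of 1.09, against 8.74% of all genes and 4.67% with the HFD higher. Without the 3 libraries rich in adipocyte RNA 4 did, all higher on the HFD, with a median of 0.39, against 3.96% of all genes and 1.93% with the HFD higher. Fabp4 and Cidec, which are in this list, are also among the adipocyte markers summed here. Other genes of the list, such as Plin4 and Lipe, may come from adipocytes too. The part of adipocyte RNA was not tested.

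In mice on the diets for 20 weeks, H3K27ac, a mark of active promoters and enhancers, was read as the share of each gene window covered by peaks. The lists give no height and no read count, so depth is unknown and weaker or stronger signal within a peak does not show. A peak lay within 1 kb of the gene start in all 12 libraries for 30 of the 38 genes and in none for Fabp1, Cyp4a10 and Bdh1. For Bdh1 a peak was present in all 12 libraries at another annotated start of the gene, whereas the Fabp1 and Cyp4a10 windows held none at all. Coverage averaged over the 12 libraries was highest for Ech1, at 91.4% of the window, followed by Slc25a20 at 51.7%, with a median of 20.4% over the 38 genes against 10.6% over all windows tested. Exact two-sided permutation tests with the diets permuted within each sex allow no p below 0.005, so an adjusted p under 0.05 was hardly within reach, and 0 of 17311 windows had one.

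Of the 36 windows that could be tested for H3K27ac, 30 had more coverage on the HFD and 6 less, with a median difference of 1.77 percentage points. Over all windows 66.1% had more on the HFD and the median was 0.39 points. The HFD libraries covered a mean of 10.9% of all windows and the LFD libraries 10.4%. After each library was divided by its mean covered share, 410 of 794 windows with an unadjusted p under 0.05 had more on the HFD, against 643 of 719 before, and 2 of the 38 genes had one. Hadha and Acaa2 were the 2 genes with an unadjusted p under 0.05, both with more on the HFD, against 4.15% of all windows and 3.71% with more on the HFD. By limma there were 7 of the 38 genes, and with windows extended by 50 kb 6, and none passed an adjusted p of 0.05 in either. No gene of the 38 had diets that did not overlap, and 0.168% of all windows did. Hadha coverage ran from 24.6% to 31.6% with a median of 29.1% on the HFD and from 16.8% to 28.1% with a median of 19.1% on the LFD. The ranges overlapped, and the difference was 7.12 points (exact permutation p = 0.015, adjusted p = 1), 9.65 points in females and 4.59 points in males. Acaa2 ran from 38.7% to 46.2% with a median of 41.5% on the HFD and from 31.1% to 41.7% with a median of 36.8% on the LFD. Its difference was 4.61 points (exact permutation p = 0.035), 8.09 points in females and 1.13 points in males. Hadhb, whose window overlaps that of Hadha, differed by 4.98 points (exact permutation p = 0.05). Acaa1b differed by 4.47 points and Ucp2 by 5.08 points, each with an exact permutation p of 0.055. The start of Acaa1b had a peak in 3 of 6 HFD libraries and 0 of 6 LFD libraries. Partly marked starts were also seen at Angptl4, in 5 of 6 libraries on either diet, at Ppargc1a in 5 of 12 libraries, at Acot1 in 11 and at Creb3l3 in 1. These counts depend on the start used: at any annotated start of the gene a peak was present in 12 of 12 libraries for Angptl4 and Ppargc1a and in 11 for Creb3l3, while Acaa1b and Acot1 stayed at 3 and 11. Whether the difference between diets itself differs between the sexes was not tested.

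H3K4me1, which marks enhancers whether or not they are active, covered a median of 35.6% of the windows of the 38 genes, against 19.2% over all windows tested. Coverage was higher on the HFD for 20 of the 38 genes and lower for 18, with a median difference of 0.33 percentage points, and 50.9% of all windows were higher on the HFD. Pdk4 alone had an unadjusted p under 0.05, against 3.42% of all windows and 1.85% with more on the HFD. It ran from 9.35% to 14.8% with a median of 12.99% on the HFD and from 8.13% to 11.8% with a median of 9.35% on the LFD. The difference was 3.12 points (exact permutation p = 0.02, adjusted p = 1), with overlap between the diets, which 0.12% of all windows lacked. Acadvl had the next smallest p, with -3.17 points (exact permutation p = 0.160), followed by Hsd17b4, Acadm and Hadha at 1.67, 1.97 and 2.29 points. The start carried a peak in all 12 libraries for 30 of the 38 genes. It did so in 11 libraries for Decr2 and Acaa1b, in 7 for Ppargc1a, in 4 for Cyp4a10, in 3 for Pparg, in 2 for Bdh1 and Creb3l3 and in 1 for Fabp1. At any annotated start, Ppargc1a, Pparg, Bdh1 and Creb3l3 had a peak in all 12 libraries.

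In the recipients of bacteria, H3K27ac coverage was compared between diets within each donor and averaged. Coverage was higher on the HFD for 34 of 37 testable genes, but also for 80.5% of all windows. The HFD libraries had longer peak lists, with 42486 to 51873 peaks against 39684 to 45797 on the LFD, and a mean covered share of 11.7% against 10.3% of all windows. An unadjusted p under 0.05 was reached by 8 of the 38 genes, all with more coverage on the HFD, against 15% of all windows and 14.4% with more on the HFD. The smallest adjusted p was 0.195 over all windows and 0.208 among the 38 genes. By limma 12 windows passed an adjusted p of 0.05, all with more on the HFD and none of them of the 38 genes. After each library was divided by its mean covered share, 4 of the 38 genes had one, 2 of them higher on the HFD, and of all windows 1766 did, 984 of them higher on the HFD against 2572 of 2671 before.

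Slc25a20 covered 51.7% and 54.0% of its window in HFDHFB, 56.4%, 52.6% and 57.8% in HFDLFB, 48.9%, 40.8% and 47.4% in LFDHFB, and 51.2%, 50.7% and 39.96% in LFDLFB. It was the gene of the 38 whose diets did not overlap, where 2.15% of all windows did not, with a difference of 7.72 points (exact permutation p = 0.01). The shares and p-values of the genes named here are not divided by the library means. The mean share of all windows was 12.7% in HFDHFB replicate 2 and 10.5% in LFDHFB replicate 1. Divided by these means, Slc25a20 was lower in HFDHFB replicate 2 than in LFDHFB replicate 1, so the diets then overlapped. Ppargc1a, at 6.67 points, and Acadvl, at 4.30 points, had the same exact permutation p of 0.01. Pdk4 followed with 2.98 points (exact permutation p = 0.015) and Hadhb with 7.53 points (exact permutation p = 0.025). The largest difference was that of Ppard, 10.6 points (exact permutation p = 0.03). At the gene start a peak was present in all 11 libraries for 31 of the 38 genes. Starts marked in part were those of Acot1 in 10, Creb3l3 in 6, Ppargc1a in 4 and Acaa1b in 4 of the 11 libraries. At any annotated start, Ppargc1a had a peak in all 11 libraries and Creb3l3 in 10.

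**Figure D4:**
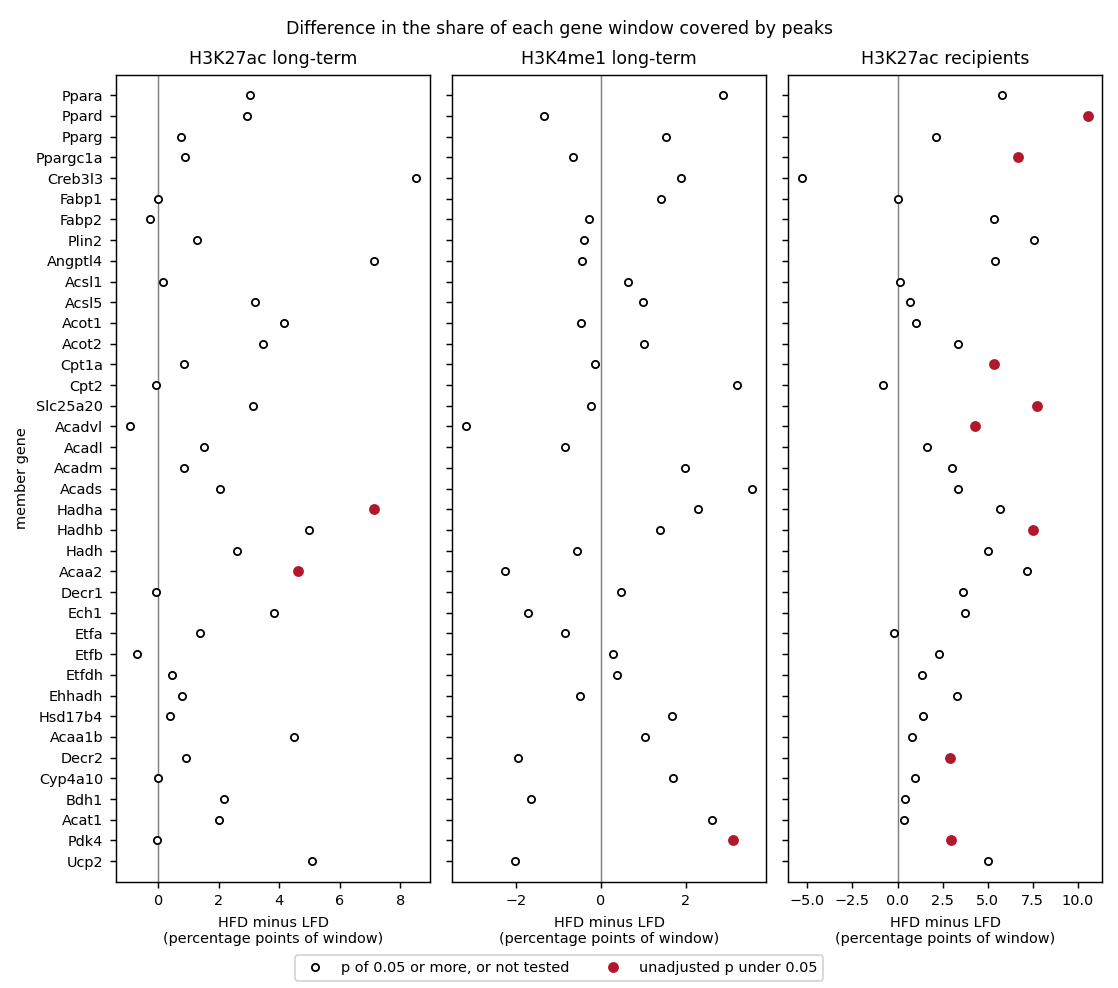
For each of the 38 genes, the difference between HFD and LFD in the share of the gene window covered by peaks, in percentage points, in long-term mice (H3K27ac, H3K4me1) and in recipients (H3K27ac); filled red points have an unadjusted exact permutation p under 0.05. Red points are Hadha and Acaa2 in the first panel, Pdk4 in the second, and 8 genes in the third, where 80.5% of all windows also lie to the right of 0.

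HNF4α peaks were compared across 2 HFD and 2 LFD libraries of males after 20 weeks of diet, as a description without a test. Merging overlapping peaks gave 49525 sites, of which 8494 or 17.2% were found in all 4 libraries. The windows of the 38 genes held 139 sites, of which 31 or 22.3% were found in all 4, and 19 genes had at least 1 such site. Pparg had 4 such sites, and Cpt1a and Creb3l3 had 3 each. Ppard, Plin2, Angptl4, Hadhb, Hadh and Ehhadh had 2 each. The windows of Hadha and Hadhb overlap, and a site found in all 4 libraries in an intron of Hadha, 2847 bp inside the gene, lies in both. Acat1 and Fabp1 had no HNF4α peak in any library, although Acat1 was well expressed.

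Both elements described for these receptors were searched on both strands of the central 300 bases of each site. The HNF4α core was CAAAGTCCA, CAAAGTTCA, CAAAGGTCA or CAAAGGCCA. The element shared by PPAR and HNF4α, called DR1, was AGGTCA repeated after 1 base of any kind, with at most 2 of its fixed bases differing. The elements can overlap. The core was present in 15.8% of the sites of the 38 genes and in 13.1% of all sites, and DR1 in 16.5% and 10.9%. Among sites found in all 4 libraries the core was present in 35.5% and 27%, and DR1 in 25.8% and 17.7%. A match describes the letters and is not evidence of binding by a given factor. Of the sites of the 38 genes found in all 4 libraries, 4 held both elements, and they are shown because they carry both motifs beside genes described above. Sequences are from mm9, on the strand of the gene, 5′ to 3′, with capitals for the core and the DR1 element and up to 40 bases on either side.
Hadh, chr3:130974249-130974341, minus strand: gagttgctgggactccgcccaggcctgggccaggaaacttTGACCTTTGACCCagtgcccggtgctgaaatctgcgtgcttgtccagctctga
Angptl4, chr17:33912584-33912772, minus strand: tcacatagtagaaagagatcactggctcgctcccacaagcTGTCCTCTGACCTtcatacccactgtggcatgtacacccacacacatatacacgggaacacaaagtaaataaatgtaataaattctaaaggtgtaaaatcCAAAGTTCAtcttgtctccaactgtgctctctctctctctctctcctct
Ehhadh, chr16:21788750-21788845, minus strand: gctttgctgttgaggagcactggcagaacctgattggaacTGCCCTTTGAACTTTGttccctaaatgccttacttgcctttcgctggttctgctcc
Ppara, chr15:85584807-85584948, plus strand: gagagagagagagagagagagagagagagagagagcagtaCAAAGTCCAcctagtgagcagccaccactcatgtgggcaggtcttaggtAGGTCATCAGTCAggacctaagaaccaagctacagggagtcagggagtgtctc
The stretch of Hadh, the dehydrogenase for short chain hydroxyacyl-CoA, lies in an intron with the site centred 727 bp inside the gene. Its DR1 element reads GGGTCAAAGGTCA on the opposite strand, with 1 base differing, and contains the core. The stretch of Angptl4 lies in an intron with the site centred 5875 bp inside the gene, and its DR1 element, AGGTCAGAGGACA on the opposite strand, stands apart from the core. The Ehhadh site is centred at -890 bp, upstream of the start, with overlapping elements, and that of Ppara lies in an intron at 18838 bp. Both have DR1 elements with 2 differing bases.

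**Figure D5:**
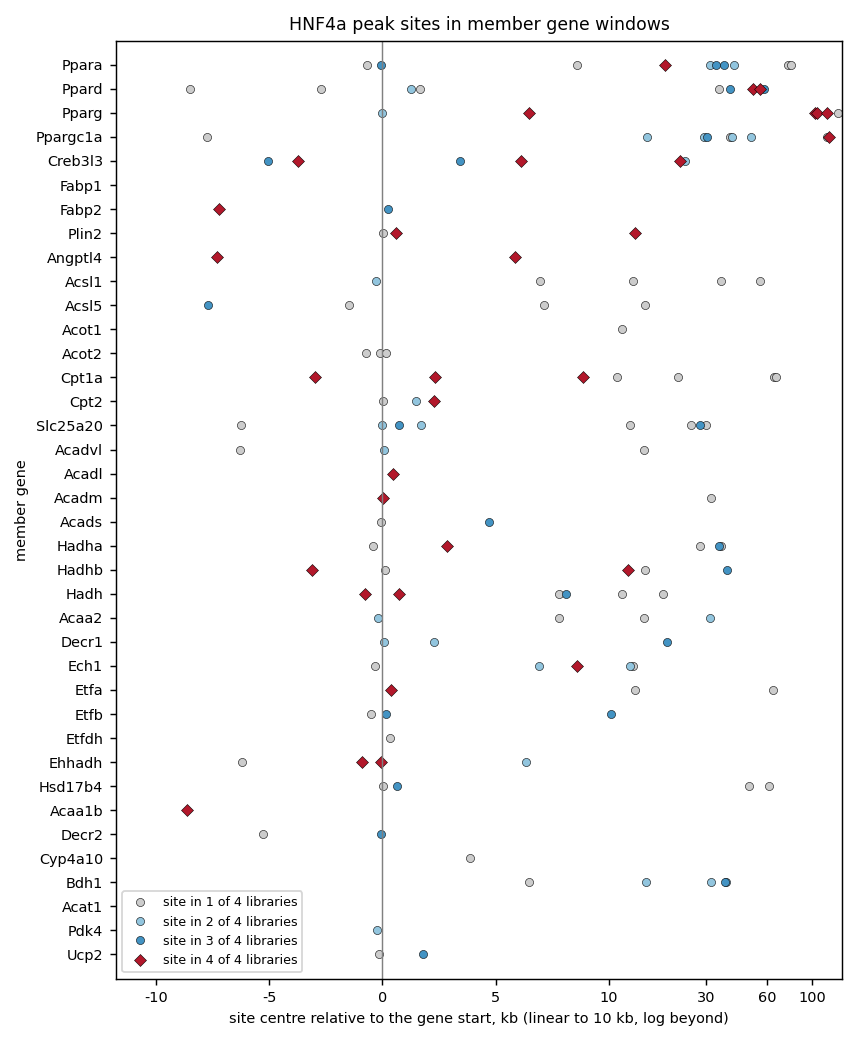
HNF4α peak sites in the window of each of the 38 genes, by the distance of the site centre from the gene start in kb (linear to 10 kb, log beyond) and coloured by the number of the 4 libraries that had the site. Dark red diamonds are the sites found in all 4 libraries, most often at Pparg (4), Cpt1a (3) and Creb3l3 (3).

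Sites that split by diet were few. Of the 139 sites, 7 or 5.04% were found in both LFD libraries and in neither HFD library, against 3.16% of all sites, and 0 were found in both HFD libraries and in neither LFD library, against 1.88% of all sites. The 7 lay at Bdh1 (15286 and 37876 bp from the start), Ppara (31285 bp), Ppargc1a (49836 bp), Acsl1 (-269 bp), Acadvl (58 bp) and Acaa2 (-203 bp), so that 3 were at the gene start. LFD replicate 1 had the longest list, with 27766 peaks against 21308 to 22640 in the other libraries, and its part in this count was not tested.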

How the data were processed

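RNA was measured in 12 libraries and peaks in 24 long-term and 11 recipient histone libraries and 4 HNF4α libraries. The authors deposited raw read counts per gene, made with STAR 2.5 on mm9 and featureCounts 1.5.0-p1 per the submitters' processing notes. The strand setting is not given in the sources used here, so antisense reads cannot be told apart. The authors also deposited peak lists (Bowtie 0.12.8, Picard 1.110, then SICER for the histone marks and HOMER for HNF4α) that give each peak's start and end with no score. Input libraries and their reads were not used here.

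Gene-wise tests used edgeR 4.0.16 (R 4.3.3): filterByExpr (15893 genes kept, all 38 genes among them), TMM and quasi-likelihood F-tests with the 4 groups in 1 fit and Benjamini-Hochberg adjustment over all genes. DESeq2 1.42.0 and limma 3.58.1 were alternatives. Covered shares of windows were compared with exact two-sided permutation tests within sex or donor (400 and 200 assignments) in Python 3.11.15, and genes never covered were not tested. The scripts were tested on simulated data. The 38 genes and the other lists were chosen with earlier results of these data known. Genes described library by library or by ranges were those with the 15 smallest p in the averaged diet comparison and the highest level per kb of each role, with the 2 smallest p for bacteria and interaction, up to 5 smallest p for each mark, starts marked in part, and the HNF4α sites holding both motifs; genes with an unadjusted p under 0.05 elsewhere are named after their values were seen. The distal Hox list was added after the data were seen. Intervals in log2 differences are 95% intervals, not adjusted for the number of genes. The result for 1 gene of the other pathway lists is not reported here.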

Additional observations from a re-analysis of the deposited data

Results flagged for a closer look

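Each value here lies far from the other libraries of its diet, as the highest or lowest library whose gap to the next is large for the range of the group. Of 60 groups of values examined, 8 were picked out. The limit would pick out about 1 in 20 groups of independent, normally distributed values. These groups were chosen by small p, mix donors or sexes and share libraries, so that rate need not hold here. The causes were not tested.

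In RNA of LFD recipients, LFDHFB replicate 3 had 16.0 CPM of Angptl4 where the other 5 libraries had 0.372 to 3.29 CPM, 29.6 CPM of Acaa1b where the others had 0.435 to 5.11 CPM, and 20.5 CPM of Pdk4 where the others had 2.01 to 6.84 CPM. The same library had the lowest distal Hox sum, 29.8 CPM. In HFD recipients, HFDLFB replicate 1 had 23.2 CPM of Pdk4 where the others had 4.97 to 11.1 CPM, and its adipocyte sum was 1145 CPM.

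Among covered shares, the H3K4me1 share of the Hsd17b4 window was 9.31% in LFD female replicate 3 and 13.9% to 16.4% in the other LFD libraries. That of the Hadha window was 48.2% in LFD male replicate 3 and 36.9% to 40.8% in the others. For H3K27ac in recipients, the Ppargc1a window was covered to 28.2% in LFDLFB replicate 1 and to 20.1% to 21.3% in the other LFD libraries. The Pdk4 window was covered to 12.99% in HFDHFB replicate 2 and to 8.503% to 9.35% in the other HFD libraries.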

How the results depend on the processing

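Settings compared were DESeq2, its size factors, no filter on low counts, each library left out, the 2 groups alone, other window sizes, the number of peaks, limma and other motif limits. Leaving out 3 libraries rich in adipocyte RNA or poor in Hox RNA, and dividing covered shares by the library mean, were chosen after seeing the data. The number of the 38 genes past an adjusted p of 0.05 was 0 to 0 with each library left out in turn, for all 6 expression comparisons and all 3 peak sets. DESeq2 gave 1 for the diet in LFB recipients (Angptl4, log2 difference 3.76) and 1 for bacteria on the HFD (Acsl1, log2 difference -1.29). Under the replicate block it was 0 in every expression comparison. The labels do not say whether equal replicate numbers pair the libraries. Correlations of same-numbered deviations ran from -0.59 to 0.45 over 18 pairs, with 6 over 0.1. Those of the 36 other pairs ran from -0.55 to 0.65, with 17 over 0.1. These values cannot decide whether the libraries are paired, since deviations within a group of 3 are tied to each other. Genes of the 38 at an unadjusted p under 0.05 in the averaged diet comparison numbered 1 to 12 with 1 library left out. The 12 came without LFDHFB replicate 3. The 1 came without HFDHFB replicate 3 or LFDHFB replicate 1. In recipients the H3K27ac count ran from 2, without HFDHFB replicate 2, to 10, and in long-term mice from 1 to 8, the latter without HFD male replicate 1. By number of peaks, 2 differences changed sign, to -0.167 peaks for Ucp2 (H3K27ac, long-term) and -1.58 peaks for Hadhb (H3K27ac, recipients). The cause was not tested. DR1 was found at 7 sites with at most 1 differing base, against 23 with 2. Some averaged diet differences close to 0 changed sign: without LFDHFB replicate 3, Pparg to 0.07 and Ucp2 to less than 0.01, and without the 3 libraries, Pparg to 0.01, Ppargc1a to 0.09, Cpt1a to 0.06, Acsl5 to 0.03, Hadha to 0.05, and Bdh1, Ehhadh and Ucp2 to less than 0.01. Depth limited Cyp4a10 and Fabp1, and with 3 libraries a group intervals for Angptl4, Acaa1b and Pdk4 spanned more than 2 log2 units.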

Other observations

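Apoa4, an apolipoprotein of fat-absorbing gut cells and a PPAR target, was singled out after its values were seen. It had 0.575, 0.280 and 4.30 CPM in HFDHFB and 0.157, 0.459 and 0.207 CPM in HFDLFB. It had 0.0890, 0.137 and 0.0432 CPM in LFDHFB and 0, 0 and 0.0229 CPM in LFDLFB. Every HFD library was above every LFD library, although the levels were low throughout, and LFDHFB replicate 3, which was high for Angptl4 and Acaa1b, was not high for Apoa4. No LFD library was above 0.137 CPM, so Apoa4 could pass the filter on low counts only through its HFD libraries. A higher level on the HFD was thus favoured by the filter, and the separation is a description only. The averaged difference was 4.49 on the log2 scale (interval 2.56 to 6.42, edgeR adjusted p = 0.9999). Of all genes, 0.12% had diets that did not overlap. The size of this difference is uncertain. HFDHFB replicate 3, at 4.30 CPM, was far above the next library, at 0.575 CPM, and LFDLFB values were 0 to 0.0229 CPM. Apoa1, its neighbour in the apolipoprotein family, differed by 1.79 (interval 0.27 to 3.31) with overlap between the diets.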
